A study of Mus musculus with 27 samples.

Results

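The insulin-like growth factor (IGF) axis was followed through the embryonic optic stalk in 10 genes. They are the ligands Igf1 and Igf2, the noncoding RNA H19 that neighbours Igf2, the receptors Igf1r and Igf2r, and the binding proteins Igfbp2, Igfbp3, Igfbp4, Igfbp5 and Igfbp7. The rule lists the genes by name, and all 10 were found by gene identifier among the 55487 of the count table and passed the filter on low counts that left 16330 genes. RNA came from laser-captured tissue of mouse embryos at embryonic day 14, with a dorsal, a ventral and a retinal ganglion cell axon piece of the optic stalk (OS) from each of 4 control and 5 Smarcc1-DCT-cKO embryos, which gave 27 libraries in 6 groups. Mutants were homozygous for a loxP-flanked Smarcc1 allele (Baf155 loxP/loxP), carried Dct-Cre and had the Z/EG reporter in the cross. Controls were littermates without Dct-Cre, on the same C57Bl6/J background. The protein of Smarcc1, also named BAF155, holds together the SWI/SNF complexes that move nucleosomes. Dct-Cre is active in pigmented cells and in the OS, dorsally before ventrally. By the paper, Smarcc1 labelling was gone from the whole mutant OS at this age. A captured piece can also hold other cells, in which Dct-Cre need not be active, so a mutant library can hold RNA of unrecombined cells. By their labels 1 control and 3 mutant embryos belong to batch A, and 3 control and 2 mutant embryos to batch B.

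Igf1 and Igf2 are secreted peptides that promote growth and survival through the receptor tyrosine kinase Igf1r. Igf2r, also known as the cation-independent mannose 6-phosphate receptor, takes up Igf2 for degradation in lysosomes, and the Igfbp proteins bind IGFs outside the cell and change their access to receptors. In the mouse embryo Igf2 is transcribed from the paternal copy, while H19 and Igf2r are transcribed mostly from the maternal copy, and H19 and Igf2 share enhancers. H19 is abundant in embryonic mesenchyme and falls after birth in most organs. Counts per gene do not separate the parental copies, so imprinting itself was not measured.

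H19 lies at chr7:142575529-142578143 on the minus strand of mm10 and is annotated as a long intergenic noncoding RNA. An exon of H19 holds the precursor of the microRNA miR-675, and its mature strands are shown because they are the known processed product of the gene whose level differed most clearly between the genotypes. Capitals mark the seed, bases 2 to 8, in sequences from RefSeq on GRCm38.p6.
mmu-miR-675-5p: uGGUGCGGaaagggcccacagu
mmu-miR-675-3p: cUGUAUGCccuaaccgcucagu
The 5p strand maps to chr7:142577112-142577133 and the 3p strand to chr7:142577078-142577099, and the seeds differ. Mature microRNAs were not measured in these libraries. The gene Mir675 itself had 0 counts in all 27 libraries, and the 84 bases that it shares with H19 are 3.41% of H19's exonic bases.

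Promoter windows from RefSeq were used for 9 of the 10 genes; no window was used here for H19. The 250 bases before the start of Igf2r and of Igfbp3 are printed because these were the coding genes whose dorsal mutant libraries all lay below the dorsal controls. Each window was searched on both strands for the core of the TATA box (TATAAA), for the box bound by the factor NF-Y (CCAAT) and for the GC box bound by Sp1 and its relatives (GGGCGG), and capitals mark a match.
Igf2r: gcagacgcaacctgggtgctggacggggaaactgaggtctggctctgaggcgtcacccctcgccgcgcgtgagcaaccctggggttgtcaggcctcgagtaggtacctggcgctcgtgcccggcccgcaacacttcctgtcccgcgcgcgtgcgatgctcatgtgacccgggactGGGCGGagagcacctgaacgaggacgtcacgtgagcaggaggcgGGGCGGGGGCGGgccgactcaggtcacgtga
Igfbp3: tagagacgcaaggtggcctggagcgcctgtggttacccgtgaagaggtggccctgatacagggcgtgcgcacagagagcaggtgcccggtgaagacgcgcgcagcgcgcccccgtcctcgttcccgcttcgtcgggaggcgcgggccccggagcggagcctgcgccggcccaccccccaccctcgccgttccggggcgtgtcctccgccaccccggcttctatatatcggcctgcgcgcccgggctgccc
The Igf2r window is chr17:12769707-12769956 (minus strand, 69.2% G or C) and the Igfbp3 window chr11:7213924-7214173 (minus strand, 73.2%), against a median of 52.4% over all 32851 RefSeq windows. GGGCGG matched at 3 places before Igf2r and is found in 32.7% of all windows. None of the 3 matched before Igfbp3 as an exact string, and variants, such as the tatata near the end of that window, were not searched. TATAAA is found in 12.4% and CCAAT in 33.8% of all windows.

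Library totals ranged from 10.9 to 33.98 M counts, and levels are given as counts per M counts (CPM). A count of 0 allows up to 3 counts, or 0.0883 to 0.275 CPM depending on the library, and this limit covers counting error only. Smarcc1 itself was at 50.1 to 289 CPM in the 12 control libraries and at 1.86 to 107 CPM in the 15 mutant libraries, and the dorsal mutants 1 and 2 (94.9 and 107 CPM) lay within the range of the dorsal controls. Counts per gene do not show which exons were deleted. Of the labelled tissue, 10 optic stalk and astrocyte progenitor genes such as Pax2 and Sox2 were all read in 5 of the 6 groups. In axon mutants 9 of 10 were read, and Vax2 was at 0. A marker counted as read if any library of the group held a count of it, so this cannot tell the labelled tissue from others. In dorsal controls all 12 mesenchyme, 8 endothelial and 9 pigment markers were read as well.

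Among markers of other tissue, the mesenchyme sum set the dorsal genotypes apart. The summed level of 12 mesenchyme markers (Col1a1, Pdgfra, Twist1 and others) was 1095, 3092, 10039 and 1704 CPM in dorsal controls 1 to 4 and 71.9, 49.1, 113, 233 and 352 CPM in dorsal mutants 1 to 5. These groups did not overlap. All 12 markers were read in both groups, and their median log2 fold change was -3.69. In ventral libraries the sum ran from 55.5 to 1078 CPM in controls and from 53.9 to 219 CPM in mutants, and in axon libraries from 392 to 2214 and from 581 to 2057 CPM. The optic stalk and astrocyte progenitor sum was 1032 to 1475 CPM in dorsal controls against 412 to 822 CPM in dorsal mutants, which did not overlap. The pigment sum (9 genes) was 43.5 to 5224 against 3201 to 12581 CPM, which overlapped. Endothelial markers (8 genes) summed to 240 to 452 CPM in dorsal controls and 43.2 to 420.5 CPM in dorsal mutants, which overlapped. The mural sums (105 to 332 against 97.3 to 438 CPM) and erythroid sums (728 to 24360 against 176 to 7287 CPM) overlapped as well. So did those of macrophages and neurons. Dorsal control 3 had the highest erythroid sum (24360 CPM) and the lowest pigment sum (43.5 CPM) of the dorsal libraries. The part of the marker differences in the IGF results of the dorsal OS was not tested. In captured tissue, fewer cells of a type and less RNA per cell cannot be told apart.

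Per kilobase of exon, averaged over the 6 groups, H19 (159 CPM per kb), Igfbp5 (133) and Igfbp2 (98.8) had the highest levels, followed by Igfbp4 (31.7), Igfbp3 (14.4), Igf2r (8.13), Igfbp7 (7.19), Igf1 (4.65) and Igf1r (4.38). H19, Igfbp2, Igfbp4, Igfbp5, Igf1r and Igf2r were read in all 27 libraries, Igfbp3 in 22, Igf1 in 20 and Igfbp7 in 11. For each gene the 6 groups were ordered by mean CPM. Neighbours in that order had separate ranges in a single case, Igf2r in dorsal controls (161 CPM) over the next group, ventral mutants (77.1 CPM).

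**Figure D1:**
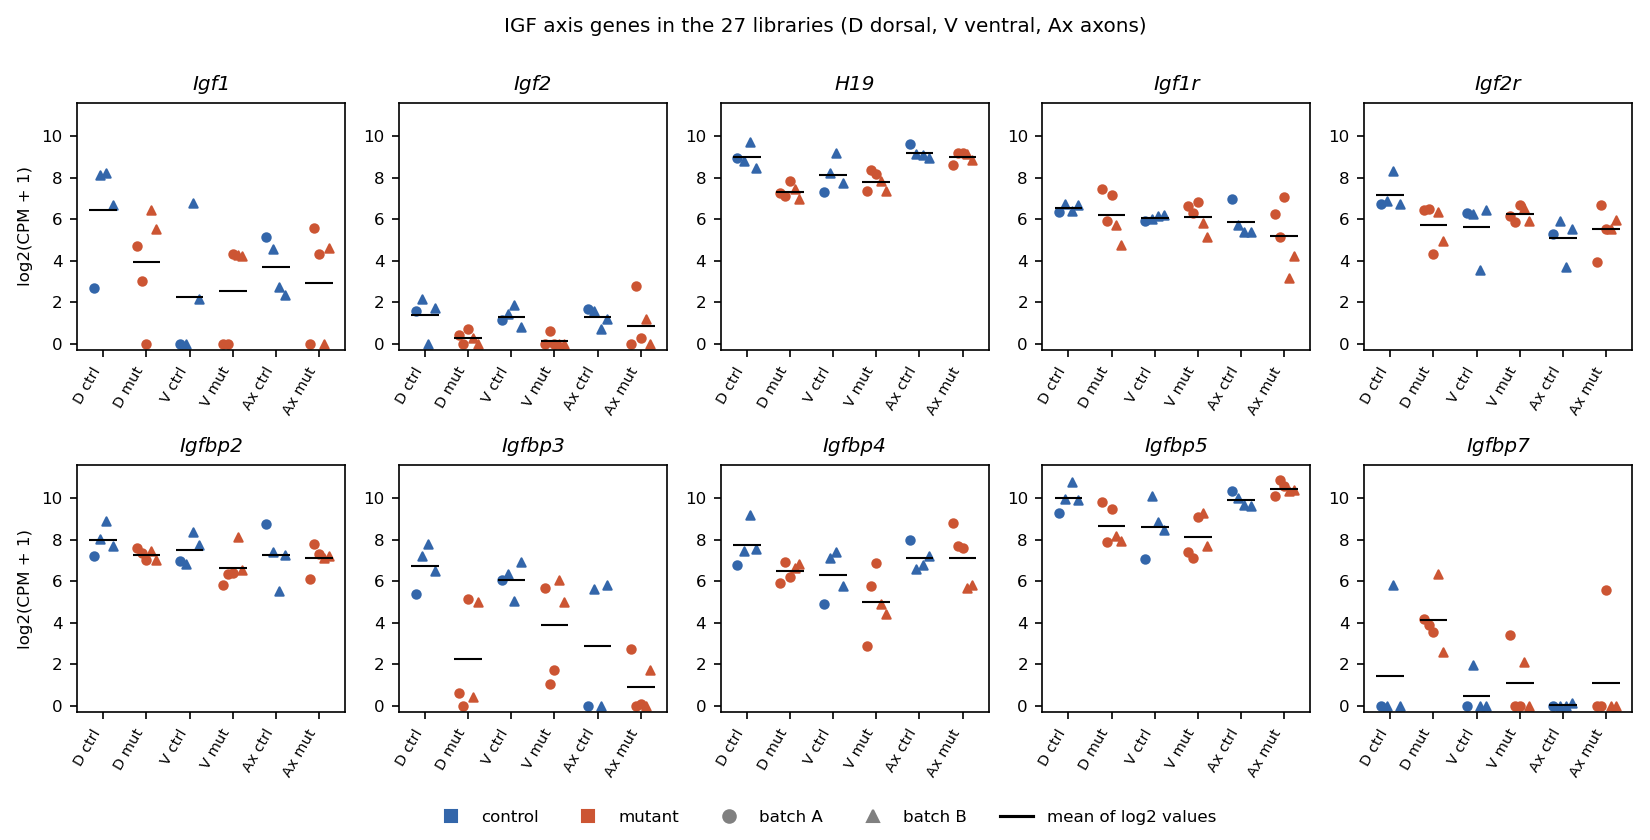
Level of each of the 10 genes in every library as log2(CPM + 1), for dorsal (D), ventral (V) and axon (Ax) pieces of controls (blue) and mutants (orange), with circles for batch A, triangles for batch B and a bar at the mean of the log2 values. H19, Igf2r and Igfbp3 are lower in every dorsal mutant than in every dorsal control, and Igf2 is at 5.84 CPM or less throughout.

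No member was called by edgeR in any of the 9 comparisons, where a call needed an adjusted p under 0.05 together with a log2 fold change beyond 0.58 either way. The share of all tested genes that was called was 0.0124% for the genotypes in the dorsal OS, 0% in the ventral OS and 0% in the axons, so calls were rare for any gene. Between control regions it was 0% (dorsal against ventral), 0.0692% (dorsal against axons) and 0.0316% (ventral against axons). For the difference of the genotype effect between regions it was 0.00612%, 0.0245% and 0.00612% in the same order. With the embryo as a replicate block, the genes called for dorsal against axon controls were 2 in place of 11, for ventral against axon controls 0 in place of 5, for the dorsal against axon interaction 2 in place of 4 and for the ventral against axon interaction 0 in place of 1, and members stayed at 0. With DESeq2, which called 3.86% of genes in the dorsal genotype comparison, H19 was the only member called. Without the count filter edgeR called 0.385% of genes there, among them H19 and Igfbp5.

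In the dorsal OS, 9 of the 10 members had negative log2 fold changes in mutants. The median over the 10 was -1.22, against -0.04 over all genes tested. Igf2 is 1 of the 9 (-3.53 ± 2.75 SE), and its count cannot be read as the level of the gene. An unadjusted p under 0.05 was found for 2 of 10 members, H19 and Igfbp5, against 5.35% of all genes. The mutants were all below the controls for 3 of 10, H19, Igf2r and Igfbp3, against 1.61% of all genes. In the ventral OS the median was -0.28 (all genes -0.08), 0 members had an unadjusted p under 0.05 against 3.19% of genes, and 1 gene, Igf2, lay below throughout against 0.706%. In the axons the median was -0.45 (all genes -0.29), 1 member, Igfbp5, had an unadjusted p under 0.05 against 3.55% of genes, and 0 members were separate below or above, against 1.04% and 0.24% of genes. The 10 genes share libraries and are not independent of each other.

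**Figure D2:**
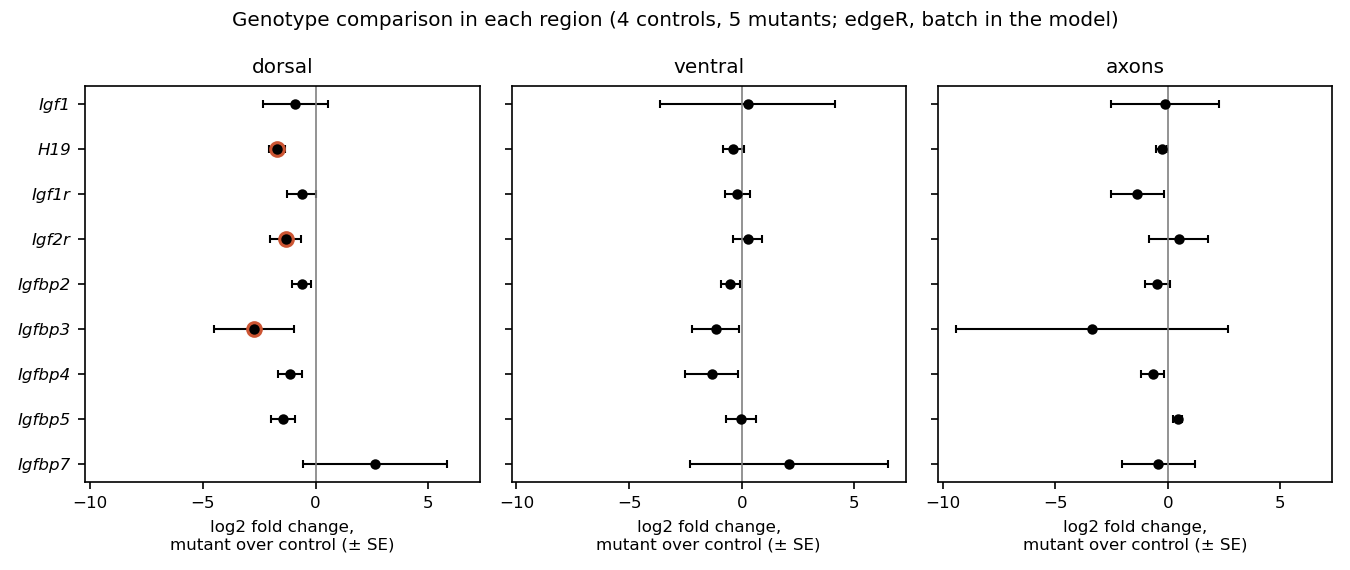
Fitted log2 fold change of mutant over control (x axis, bars are the standard error) for 9 members in each region, from 4 controls and 5 mutants with batch in the model; Igf2 is left out because its exons are mostly shared. Orange rings mark genes whose mutant libraries all lay below the controls, which are H19 (-1.72), Igf2r (-1.32) and Igfbp3 (-2.73) in the dorsal OS.

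Among the ligands, Igf1 (chr10:87858265-87937042) was highest in dorsal controls. It measured 5.53, 278, 296 and 103 CPM in dorsal controls 1 to 4 and 25.3, 7.09, 0, 84.9 and 44.6 CPM in dorsal mutants 1 to 5. Dorsal control 1, the control of batch A, was the low one and lay inside the mutant range, so the groups overlapped. The fitted difference between genotypes was -0.90 ± 1.43 (SE) with batch in the model, -1.80 within batch B and 0.92 within batch A (adjusted p = 1.00, edgeR). In ventral controls Igf1 was at 0 in replicates 1 and 2, at 108 CPM in replicate 3 and at 3.54 CPM in replicate 4, and in ventral mutants it ran from 0 to 18.8 CPM. Ventral control 3 was also the ventral library with the highest mesenchyme sum (1078 CPM), while Igf2r and Igfbp3 were lowest there among ventral controls. That is a single library, and a link of Igf1 to mesenchyme was not tested. Axon libraries held 4.12 to 34.1 CPM in controls and 0 to 46.8 CPM in mutants. Between control regions Igf1 was 3.15 ± 1.10 (SE) higher on the log2 scale in the dorsal OS than in the axons (adjusted p = 0.386, edgeR).

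Igf2 (chr7:142650766-142666816) was counted at 0 to 5.84 CPM, a level that cannot be read as that of the gene. Of its 5723 exonic bases, 3694 (64.5%) are also annotated to another gene, 3596 of them to the readthrough gene Gm49394 on the same strand and 98 to Igf2os on the opposite strand, and 546 of 678 coding bases (80.5%) are among the shared ones. HTSeq at its default setting leaves out a read that overlaps exons of more than 1 gene. In the count table Gm49394 had 0 counts in all 27 libraries and Igf2os 0 to 153 counts. For transcript Igf2-201, 112 of 3708 bases remain unshared. The counted values were 2.04, 3.54, 0 and 2.29 CPM in dorsal controls, 0 to 0.636 CPM in dorsal mutants, 0.746 to 2.63 CPM in ventral controls, 0 to 0.553 CPM in ventral mutants, 0.656 to 2.17 CPM in axon controls and 0 to 5.84 CPM in axon mutants. In the ventral OS the groups did not overlap (-6.13 ± 3.50 SE, adjusted p = 0.999, edgeR), with 4 of 5 mutant libraries at 0.

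**Figure D3:**
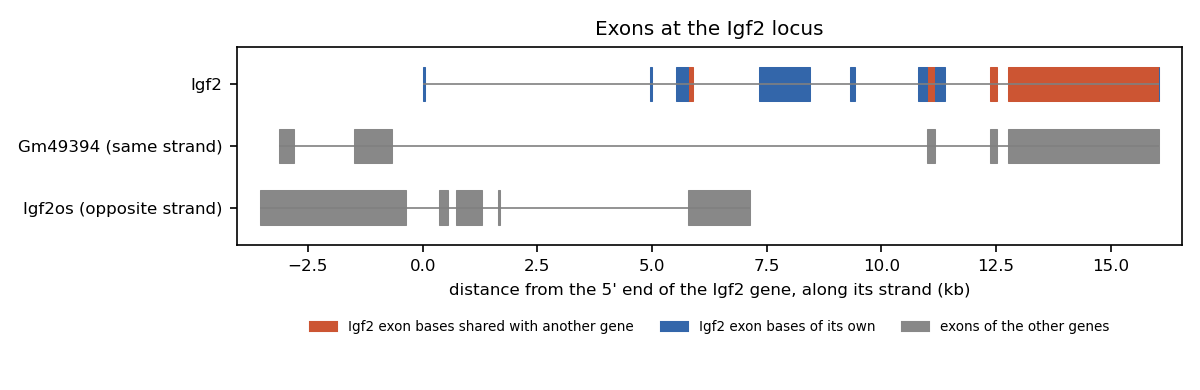
Exons at the Igf2 locus, with distance along the Igf2 strand from the 5' end of the gene on the x axis (kb). Orange blocks are the 3694 Igf2 exon bases shared with Gm49394 or Igf2os, blue blocks those of Igf2 alone, and grey blocks the exons of the other genes; the long last exon is shared almost whole.

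The receptor Igf1r (chr7:67952827-68233668) was the steadiest member over the groups, with group means from 53.4 to 92.1 CPM. Dorsal controls measured 80.1 to 105 CPM and ventral controls 59.9 to 72.0 CPM, so these groups were separate, as they also were for Igf2r. This held for 2 of 10 members against 1.32% of all genes, while the fitted difference for Igf1r was 0.45 ± 0.50 (SE, adjusted p = 1.00, edgeR). Mutant dorsal libraries spread more widely, with 173, 58.7, 142, 51.2 and 26.3 CPM in replicates 1 to 5. The genotype difference in the dorsal OS was 0.61 on the log2 scale within batch A and -1.29 within batch B, and it was -0.62 ± 0.66 (SE) over both (adjusted p = 1.00, edgeR).

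Igf2r (chr17:12682406-12769664) had its highest level in the dorsal control OS. Its values were 105, 116, 322 and 104 CPM in dorsal controls 1 to 4 and 85.1, 89.7, 19.4, 81.2 and 29.8 CPM in dorsal mutants 1 to 5. Every mutant lay below every control, and replicate 3 of the controls was high. The lowest control (104 CPM) and the highest mutant (89.7 CPM) were close. The fitted difference was -1.32 ± 0.68 (SE) on the log2 scale (adjusted p = 0.918, edgeR), and it was -0.71 within batch A and -1.70 within batch B. Ventral controls measured 77.9, 74.4, 10.6 and 84.6 CPM and ventral mutants 58.2 to 103 CPM, which overlapped. Among controls Igf2r was 1.42 ± 0.66 (SE) higher dorsally than ventrally (adjusted p = 0.615) and 1.90 ± 0.70 higher dorsally than in the axons (adjusted p = 0.386, edgeR). Without dorsal control 3 these differences were 0.78 and 1.26. The dorsal and axon controls did not overlap, which held for 1 of 10 members against 2.91% of genes.

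Airn, the paternally transcribed antisense RNA that starts inside Igf2r and is known to silence the paternal Igf2r copy, belongs to the list of other imprinted genes. It measured 20.3, 24.9, 29.4 and 17.2 CPM in dorsal controls 1 to 4. In the other 23 libraries it was at most 0.566 CPM, except axon mutant 2 with 54.9 CPM. Thus Airn was separate between dorsal and ventral controls (adjusted p = 0.615, edgeR) and between dorsal controls and dorsal mutants (adjusted p = 0.918). Of all genes, 1.32% lay above in dorsal over ventral controls and 1.61% lay below in dorsal mutants. None of Airn's exonic bases is an Igf2r exon, and 114 of 3597 lie within the Igf2r gene. Axon mutant 2 also had the highest Igf2r level of the axon libraries (103 CPM). Airn was chosen for this description after its values were seen.

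The binding proteins differed among themselves. Igfbp5 (chr1:72857932-72874884), which binds IGFs and matrix, had the highest counts of all members. Dorsal controls 1 to 4 measured 632, 983, 1749 and 968 CPM and dorsal mutants 1 to 5 measured 887, 239, 716, 290.5 and 244 CPM. The mutants of batch B (4 and 5) lay below all controls, while mutants 1 and 3 of batch A lay above the batch A control. The fitted difference was -1.46 ± 0.53 (SE, adjusted p = 0.918, edgeR), and it was -2.20 within batch B and -0.07 within batch A.

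In the axons the direction for Igfbp5 was the opposite, with 1291, 1042, 813 and 785 CPM in controls and 1091, 1852, 1542, 1298 and 1325 CPM in mutants. The highest control lay above the lowest mutant, so the ranges overlapped. The log2 difference was 0.43 ± 0.20 (SE, adjusted p = 0.880, edgeR). Ventral controls ranged from 132 to 1086 CPM and ventral mutants from 139 to 622 CPM. The log2 difference of ventral from axon controls was -1.15 ± 0.48 (SE, adjusted p = 0.453, edgeR). It was -1.83 without ventral control 2 and -0.85 without ventral control 1.

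Igfbp3 (chr11:7206086-7213923), the main IGF carrier of adult serum, measured 41.5, 149, 218 and 87.8 CPM in dorsal controls 1 to 4. Dorsal mutants 1 to 5 measured 0.550, 0, 35.1, 0.345 and 30.9 CPM, so all lay below the controls and 3 of them were close to 0. The fitted difference was -2.73 ± 1.77 (SE, adjusted p = 0.953, edgeR), with -1.80 within batch A and -3.27 within batch B. Ventral controls held 31.7 to 119.8 CPM and ventral mutants 50.3, 1.11, 2.35, 65.8 and 31.5 CPM. In axon controls Igfbp3 was at 0 in replicates 1 and 3 and at 48.8 and 56.2 CPM in replicates 2 and 4, and axon mutants did not exceed 5.61 CPM. Leaving out each dorsal library in turn moved the dorsal estimate between -5.15 (without mutant 5) and -2.03 (without mutant 4).

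Igfbp4 (chr11:99041244-99054392) measured 109, 172, 581 and 189 CPM in dorsal controls and 59.4, 121, 72.6, 100.1 and 113 CPM in dorsal mutants. The lowest control lay within the mutant range, and the difference was -1.12 ± 0.53 (SE, adjusted p = 0.918, edgeR). Igfbp4 was at 29.5 to 168 CPM in ventral controls, 6.48 to 116 CPM in ventral mutants, 96.8 to 249 CPM in axon controls and 50.5 to 443 CPM in axon mutants. Igfbp2 (chr1:72824503-72852474) held group means of 118 to 275 CPM. In the dorsal OS it measured 148 to 481 CPM in controls and 129 to 191 CPM in mutants, a difference of -0.62 ± 0.41 (SE, adjusted p = 0.953, edgeR).

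Igfbp7 (chr5:77349240-77408041), a secreted relative with low affinity for IGFs, was the only member with a positive estimate in the dorsal OS. It was at 0, 0, 55.1 and 0 CPM in dorsal controls and at 17.4, 13.95, 10.7, 81.7 and 4.98 CPM in dorsal mutants. All 5 mutants and 1 of 4 controls had reads, and the control with reads lay above 4 of the mutants. The log2 difference was 2.62 ± 3.19 (SE, adjusted p = 1.00, edgeR). Outside the dorsal OS Igfbp7 was read in 1 of 4 ventral controls, 2 of 5 ventral mutants, 1 of 4 axon controls and 1 of 5 axon mutants. Of its exonic bases 7.03% overlap Polr2b on the opposite strand.

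H19 showed the difference between genotypes that was largest relative to its error. Dorsal controls 1 to 4 measured 496, 447, 829.9 and 352 CPM. Dorsal mutants 1 to 5 measured 155, 138, 231, 174 and 123 CPM, so that the highest mutant lay below the lowest control. The group means were 531 ± 208 CPM (SD, n = 4) and 164 ± 41.9 CPM (SD, n = 5). The fitted log2 fold change was -1.72 ± 0.34 (SE, adjusted p = 0.261, edgeR), and the direction was the same within batch A (-1.52) and within batch B (-1.87). Leaving out each library in turn gave -1.87 to -1.42 with adjusted p between 0.219 and 0.951. DESeq2 gave an adjusted p of 0.0015 and edgeR without the count filter 0.00612.

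In the ventral OS H19 measured 159, 293, 575 and 212 CPM in controls and 160.4, 324, 285, 225 and 166 CPM in mutants, which overlapped (-0.37 ± 0.48 SE, adjusted p = 0.999, edgeR). The 575 CPM came from ventral control 3, the ventral library with the highest mesenchyme sum. In the same library Igf2r (10.6 CPM) and Igfbp3 (31.7 CPM) were at their lowest among ventral controls. A link to mesenchyme was not tested. Axon libraries measured 781, 556, 536 and 493 CPM in controls and 389, 588, 575, 554 and 465 CPM in mutants (-0.27 ± 0.24 SE, adjusted p = 0.911, edgeR). Among controls the log2 difference of the ventral OS from the axons was -1.11 ± 0.39 for H19 (SE, adjusted p = 0.453, edgeR).

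**Figure D4:**
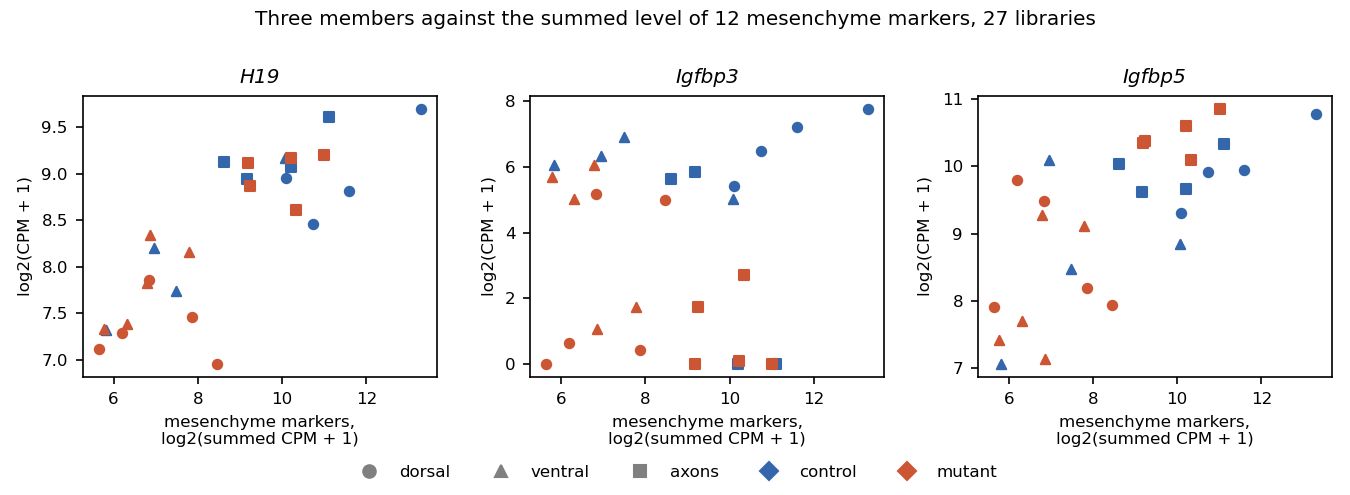
Level of H19, Igfbp3 and Igfbp5 (y axis, log2(CPM + 1)) against the summed level of 12 mesenchyme markers (x axis, log2(summed CPM + 1)) in the 27 libraries, with circles for dorsal, triangles for ventral and squares for axon libraries, controls in blue and mutants in orange. Dorsal controls sit at 1095 CPM of markers or more with H19 at 352 CPM or more. Dorsal mutants sit at 352 CPM of markers or less with H19 at 231 CPM or less. Igfbp3 is at 5.61 CPM or less in 7 of 9 axon libraries, and the marker sums of these 7 are 581 CPM or more. A link to mesenchyme was not tested.

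The genotype effect was then compared between regions. For H19 the log2 effect in the dorsal OS minus that in the ventral OS was -1.25 ± 0.47 (SE), with an adjusted p of 0.510 (edgeR), and it was the only one of the 10 members with an unadjusted p under 0.05, against 7.39% of genes. Against the axons this difference was -1.49 ± 0.47 (SE) for H19 (adjusted p = 0.233, edgeR) and -1.70 ± 0.69 for Igfbp5 (adjusted p = 0.310, edgeR), both with an unadjusted p under 0.05. These were 2 of 10 members, against 11.7% of genes. DESeq2, which called 10.1% of genes in that comparison, gave H19 an adjusted p of 0.0211, and edgeR without the count filter, which called 0.209%, gave Igfbp5 an adjusted p of 0.0299. Between the ventral OS and the axons 0 members had an unadjusted p under 0.05, against 10.4% of genes. These comparisons share libraries with the comparisons within regions, and their fit has no term for the embryo that gave 3 of the libraries. With the embryo as a replicate block the H19 difference was -1.27 ± 0.37 (SE) against the ventral OS, and H19 was not called there (edgeR). Against the axons it was then -1.35 ± 0.37 (SE), with an adjusted p of 0.696 (edgeR).

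Between control regions all 10 members had positive log2 differences for dorsal over ventral, with a median of 0.93 against 0.01 over all genes. Of them 0 had an unadjusted p under 0.05, against 6.74% of genes. The 10 include Igf2 (0.25 ± 2.22 SE), whose count cannot be read as the level of the gene. They also include Igfbp7 (4.31 ± 3.60 SE), at 0 in 3 of 4 libraries of each of these groups. The mesenchyme sum was higher in the dorsal than in the ventral controls as well, 1095 to 10039 against 55.5 to 1078 CPM, and its part was not tested. Dorsal against axons, 2 of 10 members, Igf1 and Igf2r, had an unadjusted p under 0.05 against 10.5% of genes. Ventral against axons it was 2 of 10, H19 and Igfbp5, against 9.19% of genes. The regions come from the same embryos, and with the embryo as a replicate block these counts changed. Dorsal against ventral, 4 of 10 members (Igf1, H19, Igfbp4 and Igfbp5, all higher dorsally) then had an unadjusted p under 0.05, against 2.54% of genes, with adjusted p = 1.00 for each (edgeR). Dorsal against axons it was 0 of 10 against 3.93% of genes, and Igf1 and Igf2r both had an adjusted p of 0.8001 (edgeR). Ventral against axons it remained H19 and Igfbp5, against 2.64% of genes, with an adjusted p of 0.902 (edgeR).

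The ratio of H19 to Igf2, as the difference of log2(CPM + 1), was compared between genotypes by exact permutation over all splits of each region's libraries into 4 and 5 (two-sided). In the ventral OS it was 6.80 ± 0.48 (SD, n = 4 controls) against 7.68 ± 0.34 (SD, n = 5 mutants), with an exact permutation p of 0.00794, the smallest possible, and 0.0238 adjusted over the 3 regions. Within batches the exact permutation p was 0.025, again the smallest possible. The size of the difference depends on the pseudocount: it was 0.88 with 1 CPM and 3.09 with 0.1 CPM (exact permutation p = 0.0159). Ventral H19 overlapped between the genotypes while counted Igf2 did not, and the ratio carries the limit that the shared exons set for Igf2. The difference was -0.56 in the dorsal OS (exact permutation p = 0.595) and 0.25 in the axons (exact permutation p = 0.690).

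Around the members, 0 genes of the 5 lists of other pathway and imprinted genes were called in any comparison. Of the insulin family and its receptors, Ins1, Ins2 and Insrr were read in 1, 1 and 2 of the 27 libraries, and Insr had an unadjusted p over 0.05 in every comparison. Of 9 other binding proteins and their proteases 6 could be tested in the dorsal OS and 0 had an unadjusted p under 0.05, against 5.35% of all genes. The 3 mRNA-binding proteins Igf2bp1, Igf2bp2 and Igf2bp3, which bind Igf2 mRNA among others, were read in all 27 libraries, and in the genotype comparisons none reached an unadjusted p of 0.05. Of 26 genes of the signalling path downstream of Igf1r, 18 had positive and 8 negative log2 fold changes in the dorsal OS. Their median was 0.48, against -0.04 over all genes.

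The kinase gene Akt1 measured 23.9, 37.8, 31.4 and 71.1 CPM in dorsal controls and 113, 97.4, 121, 99.0 and 94.5 CPM in dorsal mutants. All mutants lay above all controls (1.497 ± 0.603 SE, adjusted p = 0.918, edgeR), which held for 1 of the 26 genes against 1.31% of all genes. Rheb, the activator of mTORC1, was 0.82 ± 0.31 (SE) higher in dorsal mutants (adjusted p = 0.918, edgeR). In the axons Mtor was the gene of this list with an unadjusted p under 0.05 (adjusted p = 0.880, edgeR), at 59.1 ± 29.5 CPM in controls (SD) and 36.4 ± 36.6 CPM in mutants. Grb10, an imprinted adaptor that restrains IGF receptor signalling, was at 587 ± 110.3 CPM (SD) in dorsal controls, 339.6 ± 79.0 CPM in ventral controls and 320.5 ± 68.8 CPM in axon controls, and the dorsal controls lay above both other groups. In each of these comparisons this held for 1 of the 26 genes, against 1.32% (ventral OS) and 2.91% (axons) of all genes. The adjusted p of Grb10 was 0.615 against the ventral OS and 0.386 against the axons (edgeR).

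Of 32 other imprinted genes tested in the dorsal OS, 20 had negative and 12 positive log2 fold changes. The median was -0.59, against -0.04 over all genes. Whether these genes are imprinted in this tissue was not measured. At an unadjusted p under 0.05, 7 of them were lower in mutants and 1 was higher, against 5.35% of all genes in either direction. There were 0 calls. In 4 of them, Airn, Plagl1, Ndn and Dcn, every mutant lay below every control, against 1.61% of all genes. Dcn encodes the matrix proteoglycan decorin and measured 176, 620.2, 1647 and 319 CPM in dorsal controls and 39.1, 17.8, 11.9, 58.6 and 45.7 CPM in dorsal mutants (-3.64 ± 0.57 SE, adjusted p = 0.103, edgeR). The median log2 fold change of the 12 mesenchyme markers in the dorsal OS was -3.69. The part of mesenchyme in the Dcn difference was not tested. Peg3, a paternally expressed zinc finger gene, had a log2 fold change of -1.35 ± 0.34 (SE, adjusted p = 0.699, edgeR) and its groups overlapped. Plagl1 encodes a transcription factor known to activate the Igf2 and H19 region, and it averaged 461 ± 85.0 CPM (SD) in dorsal controls and 224 ± 117 CPM in dorsal mutants (adjusted p = 0.918, edgeR). The lowest dorsal control (364.5 CPM) and the highest dorsal mutant (362.1 CPM) of Plagl1 were close. In ventral and axon comparisons of the genotypes 0 of the imprinted genes had an unadjusted p under 0.05, against 3.19% and 3.55% of all genes. Between control regions, Cdkn1c was higher dorsally than ventrally at 270.4 ± 238 against 89.7 ± 29.6 CPM (adjusted p = 0.615), and Meg3 at 399 ± 282 CPM against 82.9 ± 72.1 CPM in the axons (adjusted p = 0.386, edgeR). Meg3 was also higher in ventral than in axon controls (391 ± 293 CPM in the ventral OS, adjusted p = 0.453, edgeR), and Nnat was lower in dorsal than in axon controls at 186 ± 69.7 against 379 ± 155 CPM (adjusted p = 0.386, edgeR).

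The other genes of these lists that had the smallest unadjusted p under 0.05 in a comparison were Grb2 (dorsal against ventral controls, adjusted p = 0.615), Grb14 (dorsal against axon controls, adjusted p = 0.386) and Htra1 (ventral against axon controls, adjusted p = 0.453), each at or near 0 CPM in the first group named. For the interactions they were Stc2, Htra1 and Peg3 between dorsal and ventral OS (adjusted p from 0.549 to 0.586, edgeR), Stc2, Htra1, Irs4, Grb2, Airn and Plagl1 between dorsal OS and axons (adjusted p from 0.233 to 0.345), and Irs4, Foxo1, Airn and Dcn between ventral OS and axons (adjusted p from 0.298 to 0.463).

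The genes with the most similar pattern were ranked by Spearman's rho of log2 CPM over the 27 libraries, which share regions, embryos and depth. H19 was most like Akap12 (0.86), Tmsb10 (0.85) and the collagen gene Col1a2 (0.85), and Igf1 most like the collagen cross-linking enzyme gene Lox (0.80), Cd248 (0.75) and Ror1 (0.74). Igfbp4 was most like Cthrc1 (0.83), Lum (0.81) and Col3a1 (0.79). Igfbp5 was most like Kif5b (0.82), H19 itself (0.79) and Ccnd2 (0.79). For Igf1r the nearest were Cxadr, Calr and Hps4 (0.68 to 0.72), for Igf2r Tmem241, Pde3a and Adgrl2 (0.75 to 0.76), and for Igfbp2 Slc25a36, Igf1 and Eva1b (0.67 to 0.70). Col1a2, Col3a1 and Lum are 3 of the 12 mesenchyme markers. Of pairs of members, H19 with Igfbp5 (0.79), Igf1 with Igfbp2 (0.69), Igfbp4 with Igfbp5 (0.64) and H19 with Igfbp4 (0.62) had the highest values.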

How the data were processed

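The authors deposited raw counts of reads per gene, with no scaling or filter, made with Seq2Science at default settings: single-end reads of 150 bases were aligned to mm10 with STAR and counted with HTSeq. Salmon was used by the study for TPM normalization, which was not used here. Versions, annotation release and strand setting are not given in the sources used here. The cDNA was amplified by PCR without molecular identifiers, so counts are not independent molecules. Symbols, positions and shared exonic bases came from GENCODE M21 on mm10; of 55487 identifiers 55227 matched, and the other 260 hold 0.00287% of counts.

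CPM was the count divided by the library total in M counts. A gene was tested if 3 or more of the 27 libraries held over 10 counts of it. Tests were run in R 4.3.3 with edgeR 4.0.16 (quasi-likelihood F-test, TMM, Benjamini-Hochberg over all genes of the comparison). The count filter and call thresholds follow the study's methods, in which the test was DESeq2. Genotypes were compared within each region with batch as a term, control regions without covariates, and the difference of genotype effects between regions in all 27 libraries with batch. An approximate standard error was taken as the size of the log2 fold change over the square root of F. Alternatives were DESeq2 1.42.0, RLE scaling, no count filter, no batch term, each batch alone, a replicate block and each library left out. The fits were tested on simulated data, and 0 pairs of libraries were identical.

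Dorsal, ventral and axon libraries with the same number come from the same embryo by the labels and methods. Same-numbered deviations from the group means correlated at -0.02 to 0.11 in controls and -0.005 to 0.0995 in mutants. Each group holds separate embryos.

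Text names the 10 members in each comparison, the called genes of the pathway lists or, failing those, up to 2 per list and comparison with the smallest unadjusted p under 0.05, and for each member of at least 20 CPM on average the 3 genes of most similar pattern, which for Igfbp3 are not reported here. Airn in full, Ndn and pairs of members were added after their values were seen. The members and lists were chosen with earlier results of these data known.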

Additional observations from a re-analysis of the deposited data

Results flagged for a closer look

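In 60 combinations of gene and group a library was set apart where its gap to the nearest other library was a large share of the group's range on the log2(CPM + 1) scale. Chance sets apart about 1 in 20 groups of normally spread values, and 7 were found. That rate does not hold for the Igfbp7 groups and the Igf2 group named below. All their other libraries were at 0, which makes the gap the whole range, so the 7 cannot be set against that rate. Igf2r was far above the other dorsal controls in replicate 3 (322 CPM) and far below the other ventral controls in replicate 3 (10.6 CPM), both from the same embryo. Without dorsal control 3 the dorsal genotype difference of Igf2r was -0.82, against -1.32 with it, on the log2 scale. Igfbp7 was read in a single library of 4 groups, dorsal control 3 (55.1 CPM), ventral control 2 (2.97 CPM), axon control 4 (0.0916 CPM) and axon mutant 3 (46.2 CPM). Igf2 was read in a single ventral mutant, replicate 2 (0.553 CPM), within the limit that its shared exons set.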

How the results depend on the processing

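No member was called under RLE scaling, without the batch term, in either batch alone, with the replicate block or with any library left out. DESeq2 called 1 member in the dorsal genotype comparison (H19) and 1 in the dorsal against axon interaction (H19), and edgeR without the count filter called 2 (H19 and Igfbp5) and 1 (Igfbp5). Over all genes, DESeq2 called 532, 342 and 1238 for the genotypes in the dorsal OS, ventral OS and axons, 243, 563 and 424 between control regions (dorsal against ventral, dorsal against axons, ventral against axons) and 585, 1429 and 1389 for the interactions in that order. Without the count filter the counts were 101, 8 and 10, then 11, 33 and 18, then 15, 69 and 56. Each batch alone called 0 genes in the dorsal OS, and no batch term gave 8 there and 0 for the dorsal against ventral interaction. RLE scaling gave 2 for ventral against axon controls. With the replicate block (embryo), 2 genes were called for dorsal against axon controls, 0 for ventral against axon controls, 2 for the dorsal against axon interaction and 0 for the ventral against axon interaction; members called stayed at 0, while the members with an unadjusted p under 0.05 between control regions changed as given with those comparisons. Leaving out each library in turn gave 0 to 2 genes in the dorsal OS, 0 to 1, 0 to 10 and 2 to 4 between control regions, and 1 to 2, 3 to 10 and 0 to 5 for the interactions. The H19 to Igf2 ratio in the dorsal OS turned to 0.55 with a pseudocount of 0.1 CPM and ran from -0.89 to 0.14 with a library left out, turning positive without dorsal control 3; it ran from 0.67 to 1.06 in the ventral OS and from 0.06 to 0.68 in the axons. With the pseudocount of 0.1 CPM these were 3.09 and 1.45. The cause was not tested. Igf1, Igf2, Igfbp3 and Igfbp7 were at 0 in some libraries, where a count of 0 allows up to 3 counts.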
